A study of Drosophila melanogaster with 4 samples.

Results

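The homeobox genes of the fly that act as developmental regulators were followed through heat shock treatment of cultured S2 cells. The group was defined by gene name from the homeobox families, by a rule that sets no threshold on a measured value, and its 60 names corresponded to 59 genes of the 17697 in the gene table, since Dr was listed under its older name msh as well. By family it held 8 genes of the Antennapedia complex, 3 of the Bithorax complex, 6 of the NK cluster, 13 other genes of the NK-like and Antennapedia class, 13 paired-class and paired-like genes, 4 LIM genes, 5 TALE genes, 3 genes of the sine oculis family and 4 genes of the cut, prospero and zinc-finger types.

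A homeobox encodes the homeodomain, a DNA-binding fold shared by transcription factors that assign identity to segments, tissues and neurons in the embryo. Most of these genes are active in a narrow place and time and are held silent elsewhere, many of them by Polycomb group proteins. Selective action on DNA often needs a partner, as when Extradenticle binds together with a Hox protein. S2 cells are a line with features of hemocytes, the blood cells of the fly.

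RNA sequencing of poly(A) RNA was available for 4 libraries. The 2 untreated libraries came from wild type S2 cells grown at 27 °C. The 2 heat shock libraries came from the same line kept at 37 °C for 1 h and then returned to 27 °C for 1 h of recovery, and their labels name them as separately lysed. Nothing of the kind is stated for the untreated pair, so the p-values measure the spread between these samples, which may be technical. The labels give a late embryo stage of origin, and whether the culture was clonal is not stated.

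Library totals were between 10221418 and 11988483 estimated counts. Genes with names starting with Hsp held 0.671 to 0.721% of a library before treatment and 20.4 to 22.6% after it. The levels below are therefore given as CPM, counts relative to library totals scaled with TMM factors, which are set so that most genes do not shift between libraries, and, where genes are compared with each other, as TPM, which accounts for transcript length but not for the share taken by Hsp genes. Of 8 hemocyte markers 5 were abundant enough to be tested. Of these Hml and Pxn were low, with 22 and 19 counts of Hml before and 10 and 13 after. Pxn had 40 and 29 counts before and 24.3 and 17 after. The hemocyte regulator srp had 2357 and 2659 counts before and 2740 and 2187 after treatment, whereas NimC1, eater and Sr-CI, which mark mature plasmatocytes, did not exceed 8 counts in any library. With the quasi-likelihood test of edgeR, 3513 of 8784 tested genes passed an adjusted p of 0.05, of which 1882 were higher and 1631 lower after heat shock.

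Most of the homeobox genes were close to silent in S2 cells. No count was found in any library for 5 of the 59 (zen, bap, lbe, lbl and C15), for which the depth allows up to 3 counts, equal to 0.240 to 0.343 CPM in a library. A further 41 had only traces, meaning some counts but too few for the test, which needed about 10 counts in both libraries of a group. The remaining 13 genes, 22.0% of the group, could be tested, against 59.3% of all protein-coding genes and 33.3% of 42 further homeobox genes that are not in the group. The number of group members with any count was 36 and 40 in the untreated libraries and 44 and 46 in the heat shock libraries. Over all genes it was 11791 and 11667 before and 12901 and 12691 after, so that this number was higher in general.

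**Figure D1:**
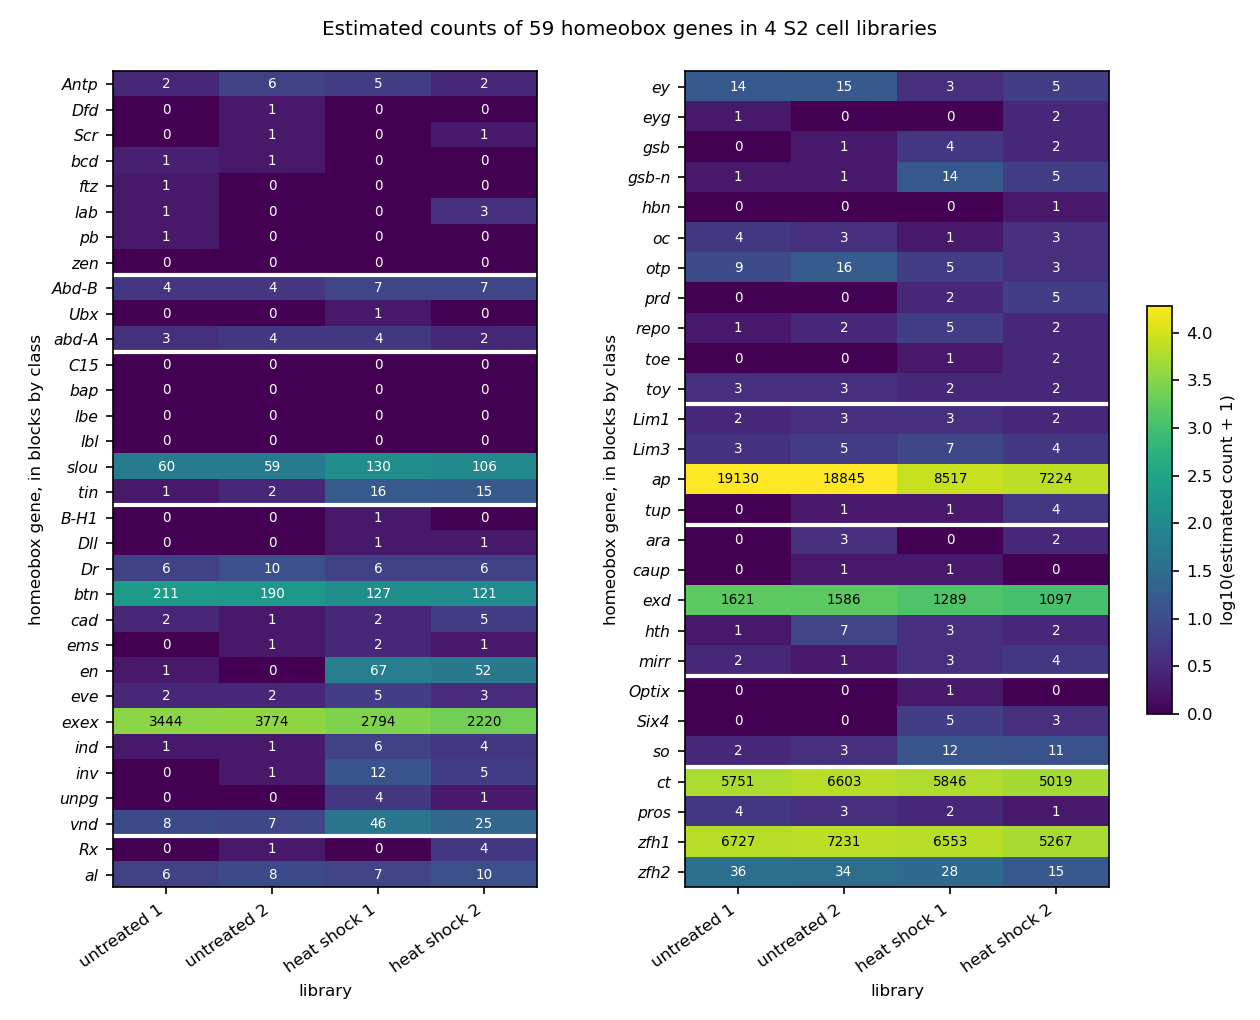
Estimated counts, rounded to whole numbers, of the 59 homeobox genes (rows, in blocks by family) in the 2 untreated and 2 heat shock libraries (columns), with the colour giving log10(count + 1). Most rows are dark (few or no counts) in all 4 libraries, ap is the brightest row with 7224 to 19130 counts, and en, tin and inv are brighter in the heat shock columns.

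The map of counts by family shows that the silent genes were not spread evenly. None of the Antennapedia complex and Bithorax complex genes, which include the Hox genes proper, reached the test, and none held more than 7 counts in a library. Abd-B, the Hox gene of the most posterior segments, had 4 and 4 counts before and 7 and 7 after heat shock, a ratio of 2.31 on TMM-scaled totals with a 95% counting interval from 0.904 to 6.35 that includes no difference. Antp, the Hox gene of the thorax, had 2 and 6 counts before and 5 and 2 after. The values for abd-A, an abdominal Hox gene, were 3 and 4 before and 4 and 2 after. For lab, the Hox gene of the anterior head, 1 count was found before and 3 after, all of these 3 in a single library. The counts of these last 3 genes overlapped between the groups. Fewer than 3 counts per library were seen for Ubx, Dfd, Scr, pb, ftz and bcd.

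Expression in untreated cells was carried by 6 genes. In the order of TPM, ap had 989.7 ± 23.4 (SD, n = 2), exex 263.4 ± 15.2, zfh1 183.6 ± 7.90, exd 115.2 ± 2.23, ct 89.9 ± 8.12 and btn 79.5 ± 6.51. Neighbours in this order did not overlap between their library values, but ct and btn came close, with 84.18 as the lower value of ct and 84.06 as the higher value of btn. The other 7 tested genes lay below 4 TPM: slou at 3.86, ey at 0.810, zfh2 at 0.585, vnd at 0.405, tin at 0.160, so at 0.155 and en at 0.0350, with the values of tin and so overlapping. After heat shock the 6 leading genes kept this order, and en moved from the last place of the 13 to the place behind slou, at 3.53 ± 0.085 TPM.

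**Figure D2:**
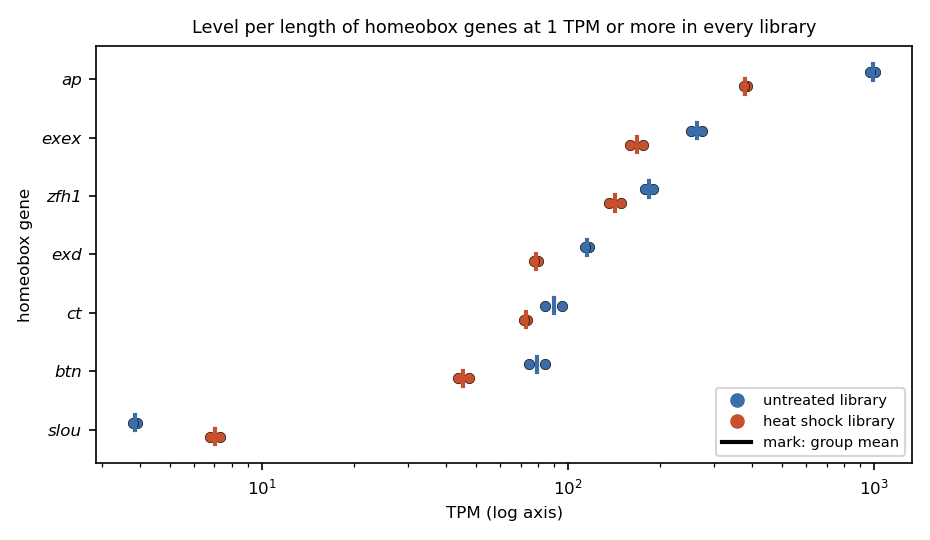
TPM (log axis) of the homeobox genes at 1 TPM or more in every library, with a point for each library and a mark for the mean of each group. From ap to btn the heat shock points lie to the left of the untreated points, and for slou they lie to the right, at 6.78 and 7.30 TPM.

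The plot of TPM levels is led by ap (apterous), the LIM gene that selects the dorsal fate of wing cells and the identity of certain neurons and muscles. It lies on chromosome 2R, from 5706202 to 5727525 on the reverse strand of release 6 of the genome. The 2 untreated libraries held 19130 and 18845 counts of ap, and the heat shock libraries 8517 and 7224. Both heat shock libraries lay far below both untreated ones, and the level fell from 1533 ± 5.16 to 837.6 ± 15.9 CPM (SD, n = 2). The log2 fold change was -0.87 ± 0.06 (SE), a 1.83-fold lower level, with an adjusted p of 1.7e-05 by edgeR. By TPM ap ranked 146 among all genes before and 294 after treatment. Its part of the summed TPM of the 59 genes went from 58.1 and 56.2% to 41.3 and 42.1%. The decrease passed the threshold in 16 of 16 alternative analyses, with log2 fold changes from -1.41 to -0.85. In bulk RNA, fewer cells that express a gene and less RNA per cell cannot be told apart, here and in all results below.

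The other 5 abundant genes did not pass the test in the main analysis. Counts of exex, the fly counterpart of the motor neuron gene HB9, were 3444 and 3774 before and 2794 and 2220 after, a log2 fold change of -0.13 ± 0.08 (adjusted p = 0.207, edgeR). Counts of exd (extradenticle), the TALE partner of Hox proteins, were 1621 and 1586 before and 1289 and 1097 after. On the CPM scale these values were 129.5 ± 0.189 and 127.0 ± 2.10. The log2 fold change was -0.03 ± 0.06 (adjusted p = 0.748, edgeR), the smallest difference among the 13 genes under TMM scaling. With library totals counted without the Hsp genes, exex (-0.33, adjusted p = 0.00383) and exd (-0.22, adjusted p = 0.0171, edgeR) passed as lower. The median gene was then at -0.22. The partner hth, which brings Exd into the nucleus, had only traces, with 1 and 7 counts before and 3 and 2 after.

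For ct (cut), which specifies external sense organs, counts were 5751 and 6603 before and 5846 and 5019 after, with a log2 fold change of 0.21 ± 0.08 (adjusted p = 0.0630, edgeR). For zfh1, a zinc-finger homeobox repressor of mesoderm and blood cells, they were 6727 and 7231 before and 6553 and 5267 after, with 0.16 ± 0.07 (adjusted p = 0.115). The direction and the call of both depended on the analysis. Both passed as higher without untreated replicate 2 (ct 0.34, adjusted p = 0.00157, and zfh1 0.23, adjusted p = 0.0270, edgeR), and ct also under a filter of 10 counts per library (adjusted p = 0.0416). With library totals in place of TMM factors the log2 fold changes of ct and zfh1 were -0.32 and -0.38, and on log2(TPM + 1) they were -0.30 and -0.36. These scalings moved the median of all genes by -0.53 and -0.48, so that both genes lay above the median gene under each of them.

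Counts of btn (buttonless), needed for the dorsal median cells of the embryo, were 211 and 190 before and 127 and 121 after. The log2 fold change was -0.29 ± 0.12 (adjusted p = 0.0876, edgeR). With library totals counted without the Hsp genes it passed as lower (-0.49, adjusted p = 0.0129, edgeR). The gene shares 61 exon bases with CG6937 on the opposite strand, whose counts of 670 and 751 went to 457 and 367 (log2 fold change -0.39 ± 0.09, adjusted p = 0.00821). Whether counting used the strand is not stated, so reads of the shared bases cannot be assigned. The same holds for zfh2, a zinc-finger homeobox gene of the wing hinge and nervous system, which shares 2325 exon bases with the far more abundant Tdg. Its counts were 36 and 34 before and 28 and 15 after (log2 fold change -0.31 ± 0.30, adjusted p = 0.436).

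Of the 13 tested genes 7 passed the threshold, 5 higher and 2 lower, next to 40.0% of all tested genes, 21.4% higher and 18.6% lower. This share of 53.8% cannot be read as a property of the homeobox genes. In 4 of the 5 that were higher (en, tin, vnd and so) the count minimum was met only in the heat shock libraries, and such a gene had to differ: of all 499 genes of that kind 89.8% were called higher. Likewise ey met it only in untreated cells, where 17.5% of the 292 genes of that kind were called lower. Of the 8 members above the minimum in both groups 1 was higher (slou) and 1 lower (ap), that is 25% called, against 38.1% of 7909 genes above the minimum in both groups (18.1% higher and 20.0% lower). The log2 fold changes had a median of 0.16 over the 13 members and -0.02 over all tested genes.

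A gain from a measurable starting level was found for slou (slouch, also S59), an NK cluster gene that sets the identity of muscle founder cells and is expressed in neurons. It lies on chromosome 3R, from 21548661 to 21557182. The untreated libraries held 60 and 59 counts and the heat shock libraries 130 and 106. The groups did not overlap, and the level went from 4.80 ± 0.010 to 12.5 ± 0.587 CPM. The log2 fold change was 1.38 ± 0.15, a 2.61-fold higher level (adjusted p = 2.5e-04, edgeR), and it passed in 16 of 16 alternatives with values from 0.73 to 1.43. Since the study itself named slou from these libraries, this value is not independent evidence. No other gene of the annotation overlaps slou or ends upstream of it on its strand within 10 kb.

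The largest ratio among the tested members was found for en (engrailed), the selector of posterior compartments, on chromosome 2R from 11524006 to 11528210. The untreated libraries held 1 and 0 counts and the heat shock libraries 67 and 52. Both treated libraries were thus far above a level at the limit of detection. On TMM-scaled totals the ratio of the summed counts was 157, with a 95% counting interval from 27.6 to 6252, and the adjusted p was 2.6e-05 (edgeR). The paralog inv (invected), separated from en by 14.3 kb and known to share its pattern, had 0 and 1 counts before and 12 and 5 after, a ratio of 22.4 with an interval from 3.51 to 937. It was too low for the main test. Without the low-count filter its adjusted p was 0.00417 with edgeR, and DESeq2 did not call it. No annotated gene overlaps en. The nearest gene upstream of inv on its strand, E(Pc), lay 9195 bp away and did not pass the test (log2 fold change -0.08 ± 0.06, adjusted p = 0.318).

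The second NK cluster gene with counts was tin (tinman), required for heart and visceral muscle, 166.7 kb from slou on chromosome 3R. It had 1 and 2 counts before and 16 and 15 after heat shock. The groups were well separated, with a ratio of 13.6 and a counting interval from 4.25 to 69.7 (adjusted p = 8.9e-04, edgeR). Its neighbour and target bap (bagpipe), only 6.91 kb away, had no count in any library, nor had the cluster genes lbe, lbl and C15. The cluster thus held 2 genes called higher, as were 21.4% of all tested genes, and 4 with no count. Since tin met the count minimum only in the heat shock libraries, it had to differ. Of all genes of that kind 89.8% were called higher.

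**Figure D3:**
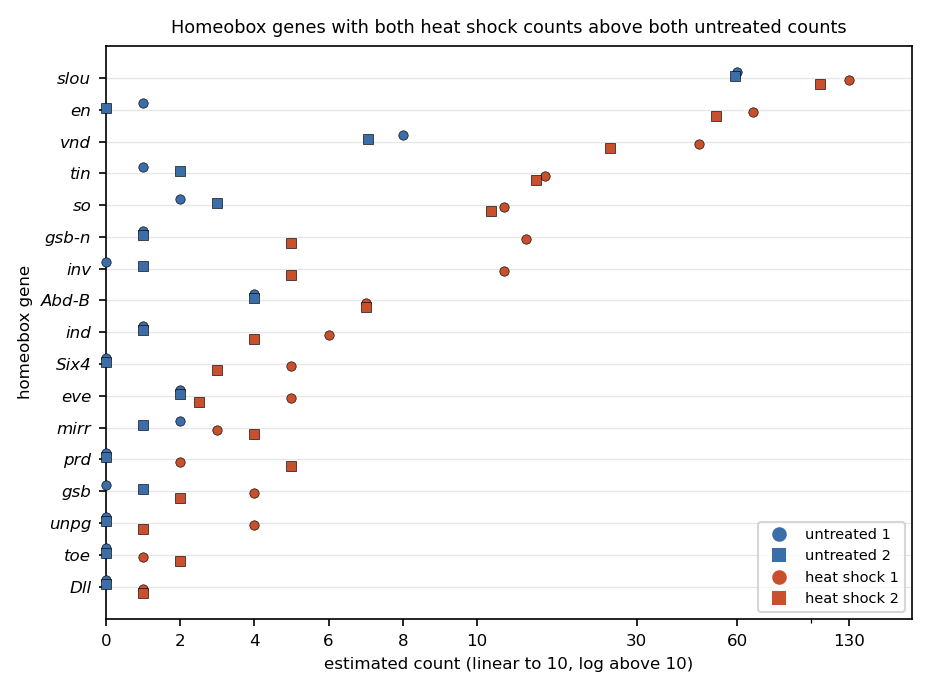
Estimated counts (axis linear to 10 and logarithmic above) of the homeobox genes with more counts in both heat shock libraries than in both untreated libraries, with a point for each library. Untreated points of en, inv, tin and gsb-n lie at 2 or fewer counts, and those of slou at 60 and 59 below its 130 and 106 after heat shock.

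The plot of gaining genes also contains vnd (ventral nervous system defective), the NK gene of the ventral column of neuroblasts. It lies on the X chromosome from 582121 to 598151, and its counts were 8 and 7.05 before and 46 and 25 after. The 2 heat shock libraries differed by more for vnd than for en or tin, with 3.72 ± 1.22 CPM after against 0.607 ± 0.046 before treatment. The log2 fold change was 2.61 ± 0.38 (adjusted p = 0.00105, edgeR). The gene Appl, which ends 3077 bp upstream on the same strand, was also higher, with 93 and 97 counts before and 157 and 133 after (log2 fold change 1.01 ± 0.13, adjusted p = 5.9e-04). On log2(TPM + 1) the value of Appl was 0.35 and did not pass (adjusted p = 0.0592, limma), where the median gene was at -0.51. Whether transcription running on from Appl adds reads to vnd was not tested.

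The ind gene, which marks the intermediate column next to that of vnd, had 1 and 1 counts before and 6 and 4 after. Its ratio of 6.60 had a counting interval from 1.41 to 61.9, and it did not pass when tested without the filter (adjusted p = 0.0721, edgeR). It lies inside Sytbeta on the same strand, with no shared exon base, and Sytbeta had 0 and 1 counts before and 10 and 5 after. The gene of the dorsal column, Dr (also msh), did not share this. Its counts of 6 and 10 before and 5.91 and 6 after gave a ratio of 0.982, with an interval from 0.427 to 2.23. The columns of the early nervous system are laid down by these 3 genes, of which vnd passed the test.

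In the sine oculis family, so, needed for the eye, had 2 and 3 counts before and 12 and 11 after. The groups did not overlap and the log2 fold change was 2.54 ± 0.48 (adjusted p = 0.00406, edgeR), but with DESeq2 the adjusted p was 0.124. Its coactivator eya (eyes absent) stayed at traces, with 2 and 1 counts before and 0 and 3 after. On the opposite strand 4 genes overlap so without a shared exon base, and the best covered of them, lncRNA:CR44202, had 0 and 0 counts before and 3 and 5 after. Six4, its relative in the mesoderm, had 0 and 0 counts before and 5 and 3 after, at least 3.52-fold higher against a floor of 3 counts over the untreated pair. The 95% counting interval of this ratio, which also allows for the error of the treated counts, started at 2.25. Tested without the filter, Six4 passed (adjusted p = 0.0308, edgeR). Optix held 1 count in all.

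The eye gene ey (eyeless), a paired-class gene that stands above so in the eye network, moved the opposite way. Its counts were 14 and 15 before and 3 and 5 after, without overlap. The log2 fold change was -1.43 ± 0.45 (adjusted p = 0.0347, edgeR), a 2.70-fold lower level. Its adjusted p was the highest of the 7, and the call was lost with DESeq2 (adjusted p = 0.399), without untreated replicate 2 (0.0630) and without heat shock replicate 1 (0.237). Of all tested genes 1.46% were called and at least 2-fold lower, and 9.37% were called and at least 2-fold higher. The paralog toy (twin of eyeless) had 3 and 3 counts before and 2 and 2 after, a ratio of 0.879 with an interval from 0.183 to 3.71.

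The other paired-class and paired-like genes had traces only. gsb-n (gooseberry-neuro), a gene of the embryonic nerve cord, had 1 and 1 counts before and 14 and 5 after, with a ratio of 12.5 and an interval from 3.02 to 111. It passed without the filter (adjusted p = 0.00417, edgeR) and not with DESeq2 (0.0996). Its neighbour gsb (gooseberry), a segment polarity gene 9.63 kb away, had 0 and 1 counts before and 4 and 2 after, and its interval from 0.960 to 364 included no difference. The pair-rule gene prd (paired) had 0 and 0 counts before and 2 and 5 after, at least 3.08-fold higher against the same floor (counting interval from 1.90 upwards), and missed the threshold without the filter (adjusted p = 0.0506, edgeR). It shares 179 exon bases with an antisense RNA that had 2 counts in a single heat shock library.

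A decrease was seen in otp (orthopedia), a gene of the hindgut and neuroendocrine cells, with 9 and 16 counts before and 5 and 3 after. The ratio was 0.422 with an interval from 0.165 to 0.965, but the adjusted p without the filter was 0.107 (edgeR). In the same family the estimated counts of al, oc, repo and Rx overlapped between the groups. The leg gene al (aristaless) had 6 and 8 counts before and 7 and 10 after, and the head gene oc (orthodenticle) had 4 and 3 before and 1 and 3 after. The glial regulator repo had 1 and 2 before and 5 and 2 after, and shares 183 exon bases with CG7156 on the opposite strand. Rx, a gene of the brain and clypeus, had 0 and 1 before and 0 and 4 after. Fewer than 3 counts per library were found for eyg, toe and hbn.

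Of the remaining trace genes, unpg, an NK-like gene of the nervous system, had 0 and 0 counts before and 4 and 1 after. This was at least 2.20-fold higher against the same floor (counting interval from 1.21 upwards). Tested without the filter, unpg did not pass (adjusted p = 0.112, edgeR). The pair-rule gene eve (even skipped) had 2 and 2 before and 5 and 2.52 after (ratio 2.48). It shares 235 exon bases with asRNA:CR43948 on the opposite strand, which had 1.48 counts in heat shock library 2. mirr, a gene of the Iroquois complex, had 2 and 1 before and 3 and 4 after (interval from 0.703 to 18.4). The intervals of eve and mirr included no difference. The posterior gene cad (caudal), with 2 and 1 before and 2 and 5 after, overlapped in counts between the groups, as did the Iroquois gene ara with 0 and 3 before and 0 and 2.01 after. The LIM genes other than ap overlapped in their counts as well. They are genes of motor neuron and interneuron identity. Lim3 had 3.06 and 4.56 counts before and 7.02 and 4.01 after, Lim1 had 2 and 3 before and 3 and 2 after, and tup had 0 and 1 before and 1 and 4 after. pros (prospero), a determinant of neural precursor division, had 3.97 and 3 before and 2 and 1 after, and its interval from 0.0943 to 2.48 included no difference. Fewer than 3 counts per library were found for B-H1, Dll, ems and caup.

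Counted over all 41 trace genes by estimated count, both heat shock values were above both untreated values in 12 (29.3%), below them in 4 and overlapping in 25. Among all genes with traces this order was found in 26.2% above and 6.99% below, and among protein-coding genes in 29.2% above and 6.85% below. By CPM, an order chosen after seeing the data, al, Lim3, repo, cad, ems and tup also lay above, which made 18 of 41 (43.9%) above and 4 below, next to 36.7% and 5.62% of all genes with traces and 40.5% and 5.52% of the protein-coding ones. On either scale the share above was near that of protein-coding genes. Summed over the 46 members that could not be tested, the level was 4.91 and 7.47 CPM before and 12.3 and 11.8 after heat shock. The sum over all 8913 genes below the filter was 808.2 and 875.1 CPM before and 1527 and 1546 after, so that it was higher in the same libraries. At these depths 1 count is worth 0.0800 to 0.114 CPM, and the intervals given cover counting error only.

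**Figure D4:**
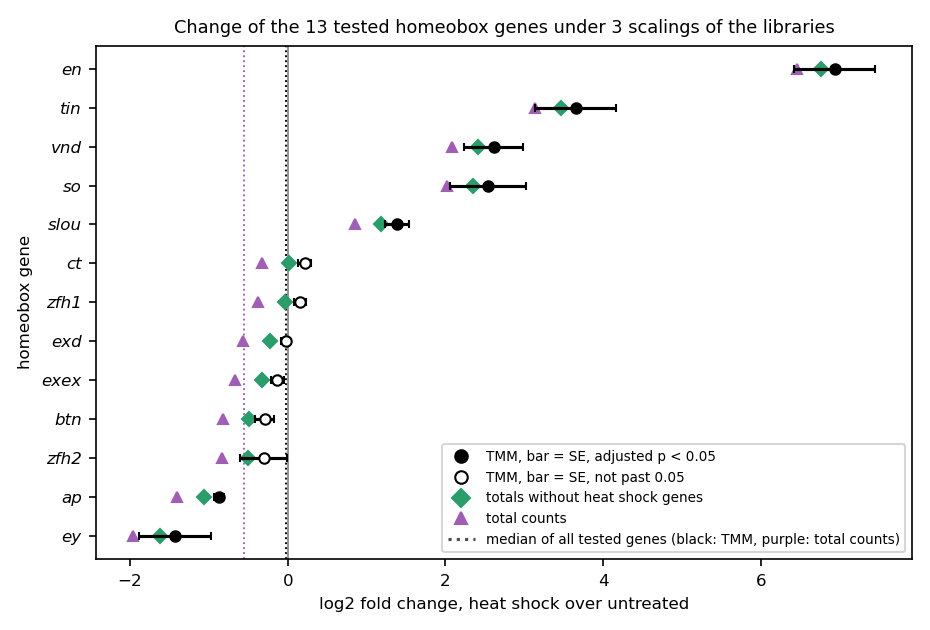
Log2 fold change (heat shock over untreated) of the tested homeobox genes under TMM scaling (filled where the adjusted p was under 0.05, bar = SE), library totals and totals without Hsp genes, with dotted lines at the median of all tested genes. The values of en and tin rest on at most 3 untreated counts and their size depends on the fit. The values of ap and ey lie below 0 and those of slou, en, tin, vnd and so above 0 under each scaling shown, while those of ct and zfh1 turn negative with library totals.

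The plot of fold changes under several scalings shows how the values depend on the scaling. With library totals alone, 13 members were called, 5 higher and 8 lower, and among all genes the calls turned from 1882 higher and 1631 lower to 769 higher and 6256 lower. With totals counted without the Hsp genes, 10 members were called, 5 higher and 5 lower, next to 1212 higher and 3591 lower among all genes. All 7 members called in the main analysis were called in both. For en, tin, vnd and so this adds no evidence. These genes met the count minimum only in the heat shock libraries, so a difference was built into their selection.

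Homeobox genes outside the group were counted in the same way. Of 42 such genes 14 were tested, 3 were higher and none was lower, which is 21.4% called against 40.0% of all tested genes. By DESeq2 1 of the 42 was called. HHEX, the fly counterpart of a vertebrate gene of blood and liver, had 4 and 6 counts before and 58 and 48 after (log2 fold change 3.77 ± 0.32). CG18599 had 7 and 2 before and 16 and 13 after (2.05 ± 0.50, adjusted p = 0.0120, edgeR), and its call was lost with DESeq2 (adjusted p = 0.159). Pph13, a photoreceptor gene, had 12 and 13 before and 19 and 23.03 after (1.14 ± 0.33, adjusted p = 0.0250), and its call was lost with library totals, both TPM scales and DESeq2, without untreated replicate 1 (0.0659) and without heat shock replicate 2 (0.124). HHEX and CG18599 met the count minimum only in the heat shock libraries, as did the 499 genes described above. Above the minimum in both groups 1 of 11 genes (Pph13) was called, 9.09% against 38.1% of all such genes.

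Of 12 partners of homeodomain proteins from other families 9 were tested, 4 were higher and none was lower, a share of 44.4% called near the 40.0% of all tested genes. The higher ones were ftz-f1, the nuclear receptor partner of Ftz (log2 fold change 0.35), Ssdp (0.35), Bx (0.34) and the corepressor gro (0.23). All 4 had negative values with library totals and on both TPM scales, which moved the median of all genes as well: with library totals gro was at -0.30 and Bx at -0.20, where the median gene was at -0.56. The call of gro was lost with the replicate block (adjusted p = 0.0567, edgeR), and when untreated replicate 1 or either heat shock library was left out. That of Bx was lost without untreated replicate 1 (log2 fold change 0.23). With totals counted without the Hsp genes, neither ftz-f1 (0.16, adjusted p = 0.0760) nor Bx (0.14, adjusted p = 0.162, edgeR) passed. The median gene was then at -0.22. Chi, the LIM-binding cofactor through which Ap acts, had 896 and 993 counts before and 641 and 588 after, and did not pass (log2 fold change -0.22 ± 0.08, adjusted p = 0.0560, edgeR).

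Among 13 segmentation genes without a homeobox, 3 were tested. The gap gene gt (giant) was higher, with 38.01 and 49.02 counts before and 73.9 and 54.9 after (log2 fold change 0.96), and so was hry (hairy), with 4701 and 5331 before and 6239 and 4474 after (0.48). Thus 2 of 3 were called, next to 40.0% of all tested genes. The call of gt was lost with DESeq2 (adjusted p = 0.107), library totals and both TPM scales. With library totals hry had a log2 fold change of -0.05, where the median gene was at -0.56. The pair-rule gene run did not pass (-0.97, adjusted p = 0.0585, edgeR). Of the 10 trace genes of this list 3 lay above in both heat shock libraries, among them odd with 0 and 0 counts before and 8 and 7 after, a share of 30% near that of all trace genes (26.2%).

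Markers of other cell types were measured beside these genes. The summed level of 5 neuronal markers was 89.0 to 99.2 CPM before and 112.8 to 119.1 after, and all 5 were detected. Most of it was elav (64.6 and 74.9 CPM before, 81.0 and 78.1 after), which did not pass (adjusted p = 0.101, edgeR). Syt1 did not pass either (0.0572), while brp and futsch passed as higher. The synaptic vesicle gene nSyb had 4 and 2 counts before and 29 and 17 after, and met the count minimum only in the heat shock libraries. The sum of 4 muscle markers was 28.3 to 31.0 before and 26.1 to 26.5 after, with wupA at 1 count in all. Most of this sum was Act57B (21.8 and 24.2 CPM before, 18.4 and 17.2 after). Mlc2 went the other way (log2 fold change 0.46) without passing the threshold. The sum of 3 fat body markers was 0.408 to 0.560 before and at most 1.72 after. Of these Fbp1 had 4 and 3 counts before and 12 and 14 after. Lsp2 went the other way, with 3 and 2 before and 1 and 0 after, and Lsp1alpha held 1 count in all. The sum of 3 glial markers was 32.3 to 32.6 before and 34.5 to 36.5 after, nearly all of it moody (31.7 and 31.6 before). That of 3 epithelial markers was 36.1 to 36.6 before and 45.6 to 48.0 after, most of it crb. That of 2 germline markers was 84.4 to 91.5 before and 77.9 to 78.4 after, nearly all of it aub. The sum of 8 hemocyte markers was 315.0 to 333.5 CPM before and 395.8 to 413.8 after. Most of it was srp (188.4 and 216.8 CPM before, 273.1 and 250.2 after). Col4a1 and vkg were higher as well. Hml (log2 fold change -0.43) and Pxn (-0.35) went the other way without passing the threshold. The part of these shifts in the values of the homeobox genes was not tested.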

How the data were processed

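Poly(A) RNA of Drosophila S2 cells was sequenced by the authors with 50 bp reads in 4 libraries. The submitters' processing notes name Trimmomatic 0.36, STAR 2.6.1c and RSEM 1.3.1. The deposited tables hold an estimated count (RSEM expected count), TPM, gene lengths and posterior standard deviations, and strand use is not stated. TPM values deposited by the authors served for comparing genes and for alternatives. Pooled tables were not used.

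Estimated counts were rounded, filtered with filterByExpr (count minimum 10), scaled with TMM and compared between groups without a covariate by the quasi-likelihood test of edgeR 4.0.16 (R 4.3.3), with Benjamini-Hochberg adjustment over all 8784 tested genes and a threshold of 0.05. The SE came from the log2 fold change and its F statistic. Below the filter, ratios of summed counts over TMM-scaled totals carry exact (Clopper-Pearson) 95% intervals. Alternatives used DESeq2 1.42.0, limma 3.58.1 (voom, and log2 of TPM with pseudocounts 1 and 0.1), other scalings, filters and a threshold of 0.01, a replicate block, and leaving out each library.

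Depth was 10221418 to 11988483 counts per library. Tables listed 17697 genes, of which 17570 matched coordinates in the annotation, which are 1-based on release 6. The test was tested on simulated data, where the share of false calls was above the nominal level. Members and lists were chosen with earlier results of these data known. All tested members are named with their counts, others where a library held at least 3 counts and otherwise by name only, and from further lists up to 5 called genes per direction, overlapping or upstream genes, and a few chosen after their values were seen (Chi, eya, run, odd). A planned look at promoter and protein sequences was not run.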

Additional observations from a re-analysis of the deposited data

How the results depend on the processing

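The number of homeobox members called was 7 in the main analysis (5 higher, 2 lower) and 7 with limma-voom and RLE factors. It was 5 with DESeq2 (1 lower), which gave no adjusted p to 22 members, 6 at a threshold of 0.01 (1 lower), 10 without a filter (8 higher), and 3 under a filter of 10 counts per library (2 higher, 1 lower), where 8 members were tested and en, tin, vnd, so and ey left the table. It was 13 with library totals (8 lower), 10 without the Hsp genes in the totals (5 lower), 12 on log2(TPM + 1) (7 lower) and 12 on log2(TPM + 0.1) (7 lower). The calls over all genes moved under the same settings, from 3513 of 8784 in the main analysis. With limma-voom it was 3484 and with RLE factors 3460. DESeq2 gave 1808 (592 lower), the threshold of 0.01 gave 1968 (736 lower), and no filter gave 4176 of 14297 (2139 higher). The filter of 10 counts per library gave 3031 of 7974. Library totals gave 7025 (6256 lower), totals without the Hsp genes 4803 (3591 lower), and the TPM scales 6866 and 6803 (6109 and 6066 lower). The log2 fold change of ct was -0.32 with library totals and -0.30 on both TPM scales, and that of zfh1 -0.38, -0.36 and -0.36. The causes were not tested. The other homeobox genes called, 3 in the main analysis, were 1 with DESeq2, 1 at the stricter filter, 1 at the threshold of 0.01, 5 without Hsp genes, and 8 with library totals and on each TPM scale.

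With a library left out, log2 fold changes were -0.89 to -0.85 for ap, 1.33 to 1.43 for slou and -1.93 to -1.02 for ey. For en they were 6.11 to 9.04, for tin 3.25 to 4.18, for vnd 2.22 to 2.90 and for so 2.27 to 2.85. The lone library of a group is then assumed to vary like the others, and without untreated replicate 1 no untreated count of en remained. Same-numbered libraries did not deviate together (correlation of deviations -0.13 over tested genes and -0.37 over genes of at least 10 CPM). With 2 libraries per group this cannot decide whether the numbers pair the samples. With the replicate number as a block, 7 members were called, next to 3269 of all 8784 tested genes. A crossed pairing, chosen after seeing the data, called 11 members (7 higher, 4 lower), next to 4640 of all 8784 tested genes. At this depth, genes below the filter are limited by counting error.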
